A study of Mus musculus with 20 samples.

Results

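Day 5 after the adenoviral vector Ad-VEGF-A164 was compared with day 0 in mouse flank tissue. Cells infected by the vector secrete VEGF-A164, 1 of the isoforms of vascular endothelial growth factor A. The comparison used 9 of the 20 arrays of the series: 4 arrays of day 5 (letters B to E of the titles) and 5 control arrays of day 0 (A to E). The array titled as day 5 A has a source name that calls it a day 0 control, so it was kept out of both groups. The other 10 arrays were of days 20 and 60 and shared the estimate of the spread, and day 20 was also set against day 5. The labels give no genotype, strain, age, sex or dose for any group. Every control was a day 0 sample and an empty vector is not mentioned in any label. Effects of VEGF-A, adenovirus, injection and harvest time therefore cannot be told apart. Whether each array stands for its own animal is not stated either, so the p-values reflect array-to-array spread alone and that spread may be technical.

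VEGF-A binds receptor tyrosine kinases on endothelial cells, above all the receptor encoded by Kdr, and makes these cells leak, divide, migrate and remodel their basement membrane. At the front of a sprout, tip cells express genes such as Esm1 and Kcne3, while Notch signalling holds the cells behind them in a stalk state. In the Ad-VEGF-A164 model the first vessels to appear are wide, thin-walled, leaky channels called mother vessels, which later divide or gain a muscular coat.

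RNA was read as MAS5 signal, a linear brightness per probe set that the depositors had scaled on each array. Each of 18193 genes was represented by its brightest probe set, and 13594 genes with a mean signal of at least 300 were tested with limma on log2(signal + 100). A log2 change below is the difference of group means on that scale (day 5 minus control, ± SE), which understates the change of dim genes. Probe set and minimum were judged on the mean over the 19 assigned arrays. A gene dim in the controls could thus enter through its high groups. A gene rose or fell where its Benjamini-Hochberg adjusted p was under 0.05, and the number of arrays limits the precision. Of all tested genes 2285 rose (16.8%) and 2373 fell (17.5%), and the median log2 change over all of them was -0.07. Among the 13594 tested genes 1798 rose with every day 5 array above every control array, and 1741 fell with every day 5 array below. At least 2-fold differences were seen in 957 genes that rose and 818 that fell, and at least 4-fold differences in 211 and 134. The shares 16.8% and 17.5% are the background for every count of list members below. The lists were chosen with earlier results of these data known, so their counts, medians and ranks are descriptions and not tests. Levels in bulk tissue cannot tell fewer cells of a type from less RNA per cell. The 3' to 5' signal ratio of Actb, which grows as RNA breaks down, ran from 4.15 to 9.12 in the controls and from 2.95 to 7.31 on day 5, and a fit with it as a covariate is given in the closing section.

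The labelled tissue was checked against its markers. Fibroblast Dcn was 49881, 68530.4, 57616, 64070.2 and 73855 in the controls and 26033, 20239, 23256 and 23554 on day 5, and defining genes of endothelium (Cdh5), fat (Adipoq), muscle (Ckm) and epidermis (Krt14) were tested as well. Luminal epithelial Krt8 was 9018, 12896, 11316, 13850.2 and 8499 in the controls, while the milk protein gene Csn2 lay between 362 and 542 on all 9 arrays. T cell markers Cd3e and Cd3g and the B cell marker Cd79a were under the minimum mean signal, with no array of either group above 297. Ms4a1, also of B cells, was tested, with 619 to 1325 in the controls and 533 to 847 on day 5, and did not pass. Of the red cell markers Hba-a1 was under the minimum, while Alas2 and Slc4a1 were tested and rose (log2 1.08 and 1.66). Alas2 ran from 490 to 1033 in the controls and from 1482 to 1827 on day 5.

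The gene carried by the vector was read by 2 probe sets. They were ranked by mean signal over the 19 assigned arrays. The brighter one by that rank was the dimmer one in the controls, so its rank rested on days 5 and 20. On the brighter one Vegfa was 145, 66.5, 142, 162 and 467 in control arrays A to E and 9410.0, 8387, 3927 and 5232 in day 5 arrays B to E. Every day 5 array was above every control, and arrays D and E were lower than B and C. On the log2 scale the difference was 4.57 ± 0.37 (adjusted p = 6.46e-08). The second Vegfa probe set ran the opposite way, from 1344 to 2629 in the controls to between 640.3 and 797 on day 5. The position of either probe set on the transcript was not analysed here, and the rise is that of the brighter probe set alone.

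**Figure D1:**
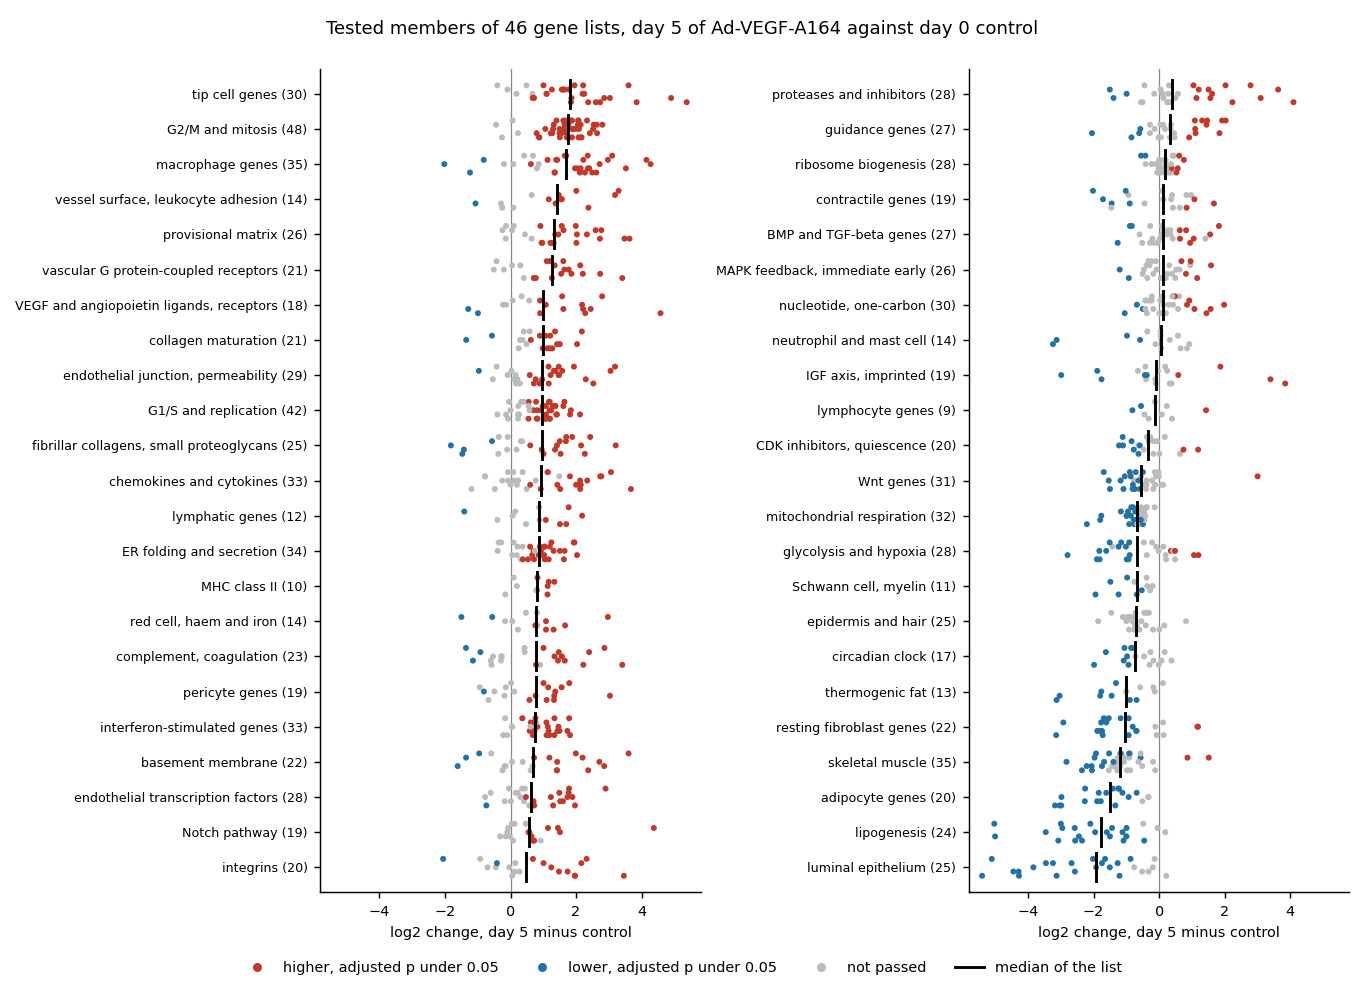
Log2 change of each tested member of 46 gene lists, day 5 minus control (horizontal axis; points shifted up or down within a list for legibility). Red and blue points passed an adjusted p of 0.05, grey points did not, black bars are list medians and numbers in brackets are tested members. Lists are ordered by median, from tip cell, G2/M and macrophage genes at the top left (1.81, 1.74 and 1.70) to luminal epithelium at the bottom right (-1.92).

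The 15 largest rises among genes whose arrays did not overlap held endothelial, myeloid and matrix genes together. Kcne3, a potassium channel subunit of tip cells, was 103, 161, 95.2, 53.4 and 102 in the controls and 6899.6, 9545, 9032 and 7512 on day 5. All 4 day 5 arrays lay far above the controls, and they differed little among themselves. The change on the scale with the pseudocount was log2 5.37 ± 0.26 (adjusted p = 1.03e-10). That scale understates it, since the controls lay near the pseudocount, and the mean signal itself differed 80.3-fold. Kcne3 passed the minimum mean signal only through days 5 and 20, with means of 103 in the controls and 224 on day 60. Esm1, the endothelial proteoglycan endocan, was 717, 624, 765, 1371 and 1042 in the controls and 35093, 32811, 24276 and 24559 on day 5, again with no overlap (log2 4.90 ± 0.42). Next after Vegfa came Tmem255a (log2 4.42), the Notch receptor gene Notch4 (4.37), the myeloid membrane protein genes Ms4a6d (4.27) and Ms4a4c (4.25) and the endothelial protocadherin gene Pcdh12 (4.15). The C-type lectin gene Clec4n of myeloid cells followed with 4.14, Timp1, an inhibitor of metalloproteinases, with 4.09, Fam167b with 4.08, and Igfbp3, which binds insulin-like growth factors, with 3.84. Ccl2, a chemokine that draws monocytes, changed by 3.67. Idi2, an isoprenoid isomerase gene, and H2-Ea, an MHC class II chain gene, had uneven controls. Idi2 was 75.3, 2023, 21.8, 48.1 and 21.4 in the controls and 2870.2, 6184, 2593 and 4435 on day 5 (log2 4.01 ± 0.96, adjusted p = 0.00333), so that control B alone came near the day 5 arrays. H2-Ea was 212, 1155, 5752, 5235 and 453 in the controls and 20358, 19322, 13648 and 21296 on day 5 (log2 3.66 ± 0.71).

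The 15 largest falls included genes of glandular epithelium and of lipid handling. Foxa1, a transcription factor of luminal epithelia, was 7651, 6963, 4982, 6560.1 and 10916 in the controls and 10.6, 246, 71.7 and 35.4 on day 5. The day 5 arrays were near the bottom of the scale and the groups were far apart (log2 -5.40 ± 0.58, adjusted p = 1.14e-06). Other epithelial genes in this set were Clca3a2 (-5.10), the progesterone receptor gene Pgr (-4.44), the keratin genes Krt18, Krt8 and Krt19 (-4.28, -4.27 and -3.83) and the water channel gene Aqp5 (-3.81). Genes of lipid handling were Thrsp, a regulator of fatty acid synthesis (-5.03), the carboxylesterase gene Ces1d (-5.00), the peroxisomal thiolase gene Acaa1b (-3.62) and Cyp2e1, a cytochrome P450 gene (-4.28). The methyltransferase gene Inmt changed by -4.26, the amylase gene Amy1 by -3.58 and Tlcd4 by -3.47. H2-Q10, a secreted class I molecule gene, was 19306, 1673, 2583, 1705 and 8685 in the controls and 113, 155, 128 and 201 on day 5 (log2 -4.12 ± 0.58). Its controls A and E stood above the other 3 here.

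**Figure D2:**
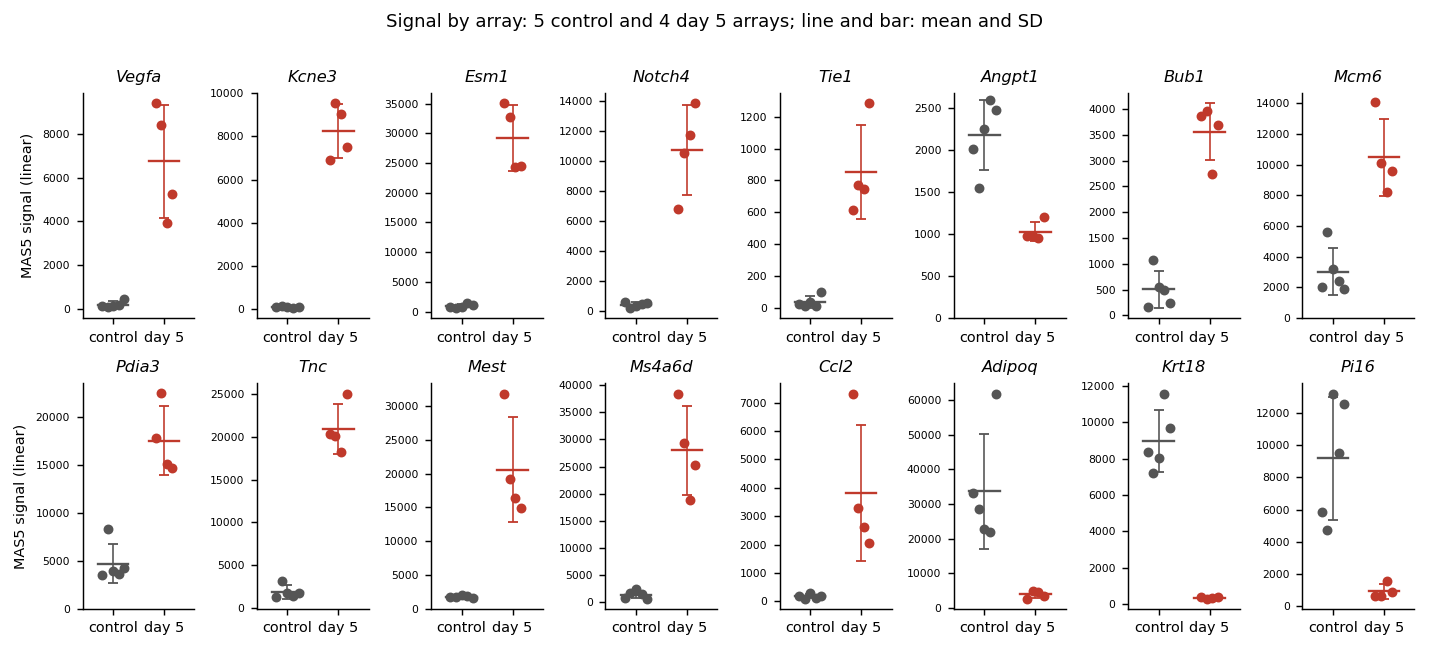
MAS5 signal (vertical axes, linear) of 16 genes in 5 control arrays (grey) and 4 day 5 arrays (red), with means as lines and SDs as bars. In all 16 genes no day 5 array overlaps a control array. Ccl2 and Mest are highest in day 5 array B, and Adipoq in control E.

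Among ligands and receptors of the VEGF and angiopoietin families, endothelial genes had the largest rises after Vegfa itself. Of 18 tested genes 11 rose and 2 fell, with a median log2 change of 0.99. Tie1, an endothelial receptor tyrosine kinase, was 26.6, 11.95, 36.9, 9.66 and 98.9 in the controls and 613, 773, 746 and 1286 on day 5. Its controls were close to the floor of the scale and the groups did not overlap (log2 2.79 ± 0.32, adjusted p = 2.72e-06). Tie1 passed the minimum mean signal only through days 5 and 20 (means of 36.8 in the controls and 125 on day 60). Its p-value is not independent of that choice. Egfl7, a secreted protein of endothelial cells, changed by 2.44 ± 0.33 and Flt1, a VEGF receptor that also acts as a trap, by 2.28 ± 0.26. Angpt1, a ligand from mural cells that steadies vessels through the receptor Tek, was 2013, 1548, 2242, 2594 and 2471.47 in the controls and 981, 980.0, 952 and 1206 on day 5. Every day 5 array was below every control (log2 -0.99 ± 0.14, adjusted p = 3.49e-05). Its antagonist Angpt2 ran the other way, from 511, 641, 913, 1177 and 695 to 3327, 3939, 4204 and 4122 (log2 2.21 ± 0.19), and Tek itself did not pass (0.57 ± 0.30). For Tek every day 5 array (4811 to 6568) still lay above every control (3051 to 4194). Vegfb, a ligand of Flt1, fell by 1.29 on the log2 scale with overlapping arrays. That call ended without control A, control E, day 5 D or day 5 E (adjusted p 0.0768 to 0.0971).

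Tip cell genes rose almost throughout. Of 30 tested genes 25 rose and none fell, and their median of 1.81 was the highest of the 46 lists. Besides Kcne3, Esm1 and Igfbp3, the basement membrane linker gene Nid2 changed by 3.60 ± 0.20 (adjusted p = 3.47e-10), from 684 ± 139 to 9404 ± 1868 (SD, n = 5 and 4). In the Notch pathway 9 of 19 genes rose and none fell (median 0.55). Notch4 was 629, 212, 313, 479 and 517 in the controls and 6769, 10533, 11732 and 13841 on day 5. The lowest day 5 array, B, was still above 10 times the highest control. Gja4, an arterial connexin gene, changed by 1.51 ± 0.26, the arterial ephrin gene Efnb2 by 1.44 ± 0.28 and the Notch target Hey1 by 1.14 ± 0.19. The ligand gene Dll4 of tip cells changed less (0.67 ± 0.19), and Notch1 had a log2 change of 0.08 that did not pass.

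Among endothelial transcription factors 15 of 28 rose and 1 fell (median 0.62), and 2 fell without control E or day 60 B. The repressor gene Bcl6b changed most (2.90 ± 0.33), followed by the ETS factor Erg (1.97 ± 0.20), Sox18 (1.89 ± 0.23) and the ETS factor Elk3 (1.78 ± 0.23). Klf4, a flow-responsive factor, was the member that fell (-0.74), with overlapping arrays. That call ended without control B, control C, control D, day 5 D, day 5 E, day 20 A, day 20 C, day 20 D, day 60 A, day 60 C, day 60 D or day 60 E (adjusted p 0.0507 to 0.141). Of 29 junction and permeability genes 19 rose and 1 fell (median 0.97), and 2 fell without control A or day 20 E. These were led by the adhesion molecule Icam2 (3.19 ± 0.34), the sialomucin Emcn (3.05 ± 0.25), the endothelial cadherin Cdh5 (2.52 ± 0.22) and Nostrin, which moves the endothelial nitric oxide synthase (2.29 ± 0.26). Plvap, the protein of fenestral diaphragms of leaky vessels, was 7041, 5963, 4969, 6347 and 4894 in the controls and 22842, 26924, 20477 and 19986 on day 5 and was chosen after its values were seen. Occludin (Ocln), a tight junction protein also of epithelia, was the member that fell (-0.97 ± 0.25).

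Receptors on vessel surfaces rose as well. Of 21 vascular G protein-coupled receptor genes and partners 15 rose and none fell (median 1.26). F2r, the thrombin receptor, rose from 5909 ± 223 to 64184 ± 9902 (log2 3.41 ± 0.33), the chemokine receptor gene Cxcr4 changed by 2.73 ± 0.30, the nucleotide receptor gene P2ry6 by 2.21 ± 0.42 and the adhesion receptor gene Adgrl4 by 2.13 ± 0.20. Of 14 genes of the vessel surface and leukocyte adhesion 9 rose and 1 fell (median 1.42). Cd93 rose from 3300.2 ± 697 to 32713 ± 610.3, the related lectin gene Clec14a changed by 2.37 ± 0.17 and the leukocyte adhesion molecule Vcam1 by 2.01 ± 0.23. The venular gene Ackr1, whose product binds chemokines, fell (-1.07 ± 0.25). Selp, a selectin of activated endothelium, had a log2 change of -0.25 that did not pass, and Sele was under the minimum signal.

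Of 12 lymphatic genes 5 rose and 1 fell (median 0.88). The VEGF-C receptor gene Flt4 changed by 2.18 ± 0.28 and the factor Foxc2 by 1.77 ± 0.30. Both are also made by blood vessels. Lyve1, a hyaluronan receptor of lymphatics and macrophages, was 1883, 3192, 7677, 4584 and 2737 in the controls and 28734, 6457, 13739.6 and 7693 on day 5, so that the groups overlapped. Its call ended without day 5 B (adjusted p = 0.0566). Reln, a secreted glycoprotein of lymphatic endothelium, fell (-1.41 ± 0.26), and Prox1, the factor that defines lymphatic cells, was under the minimum signal with 41.7 to 169 on the 9 arrays.

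Guidance genes were split. Of 27 tested 10 rose and 4 fell (median 0.35). The rises were led by Sema6d (2.03 ± 0.17), the semaphorin receptor gene Plxnd1 (1.92 ± 0.21), Slit3 (1.84 ± 0.42) and the endothelial Slit receptor gene Robo4 (1.46 ± 0.19). The 4 that fell were the semaphorins Sema3c (-2.05 ± 0.36) and Sema4d (-0.61), the netrin Ntn1 (-0.84) and the ephrin Efnb1 (-0.57). The Efnb1 call ended without control A, control C, control D, day 5 C or day 5 E (adjusted p 0.0502 to 0.107). BMP and TGF-beta genes were as mixed, with 7 of 27 higher and 3 lower (median 0.13). The ligand gene Tgfb1 (1.82 ± 0.36) and the endothelial coreceptor gene Eng (1.55 ± 0.14) led the rises, with the latent binding protein gene Ltbp2 (1.05 ± 0.35) and the matrix protein gene Tgfbi (0.95 ± 0.36). The receptor genes Bmpr1a (-0.89) and Tgfbr3 (-0.83) and the binding protein gene Ltbp1 (-1.26) fell. Without control D, day 5 B or day 5 E the Ltbp2 call ended (adjusted p 0.0525 to 0.075), and the Tgfbi call ended without each of the 9 arrays in turn and without day 20 A, day 20 D or day 60 D (adjusted p 0.0522 to 0.155).

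Feedback and immediate early genes of the MAPK pathway, which VEGF-A activates, lay near the background, with 5 of 26 higher and 2 lower (median 0.13). Inhibitors of the pathway led the rises: Spry4 changed by 1.58 ± 0.23, the phosphatase gene Dusp1 by 1.16 ± 0.32 and Spred1 by 0.96 ± 0.19. The nuclear receptor gene Nr4a3 also rose (0.82 ± 0.29), and the phosphatase genes Dusp4 (-1.20 ± 0.29) and Dusp10 (-0.92 ± 0.13) fell. The Nr4a3 call, with overlapping arrays, ended without control A, control B, day 5 C, day 5 D or day 5 E (adjusted p 0.0505 to 0.148). Immediate early Fos and Egr1 did not pass (0.05 and -0.47).

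Of 19 pericyte genes 11 rose and 1 fell (median 0.76), and 3 fell without control B and 2 without day 5 D or day 60 B. The adhesion molecule gene Mcam, active in mural and endothelial cells, changed by 3.03 ± 0.29, the mitochondrial protein gene Ndufa4l2 by 1.79 ± 0.27, the G protein regulator gene Rgs4 by 1.56 ± 0.24 and Cspg4, the NG2 proteoglycan, by 1.36 ± 0.20. Anpep, the aminopeptidase CD13, fell (-0.81 ± 0.24) with overlapping arrays. Of other pericyte markers, Rgs5, Pdgfrb and Kcnj8 rose (1.10, 1.33 and 1.15). Abcc9 did not pass (0.02), with 14388.5 to 19816.5 in the controls and 14138.8 to 19564.7 on day 5. Contractile genes did not move as 1 group: 3 of 19 rose and 5 fell (median 0.13). Smooth muscle actins Acta2 (0.84 ± 0.29) and Actg2 (1.67 ± 0.42) and the myosin light chain Myl9 (1.07 ± 0.39) rose. The 4 largest falls were in Ldb3 (-2.02 ± 0.48) and Synpo2 (-1.71 ± 0.46), both of the sarcomere's Z-disc, in Lmod1 (-1.45 ± 0.23) and in the calcium pump regulator Pln (-1.02 ± 0.39). Ldb3, Synpo2 and Pln are also expressed in striated muscle, whose list mean was 13.69 to 14.13 in the controls and 11.74 to 13.50 on day 5, and the part of that tissue in these falls was not tested. Each of Acta2, Myl9 and Pln lost its call without several single arrays: Acta2 without control A, control C, control D, control E, day 5 B, day 5 C or day 5 E (adjusted p 0.0512 to 0.0739), Myl9 without control A, control B, control C, control D, day 5 C, day 5 D or day 5 E (adjusted p 0.0502 to 0.0911) and Pln without control A, control B, control C, control D, day 5 B, day 5 C, day 5 E, day 20 E, day 60 B, day 60 C or day 60 E (adjusted p 0.0504 to 0.121). The count of contractile genes that rose was 1 without control A, control C, control D, day 5 C or day 5 E, and 6 without day 60 B.

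Cell division genes had the largest share of members called among the 46 lists. Of 48 tested genes of G2, mitosis and cytokinesis 44 rose and none fell, with a median of 1.74. In all 44 every day 5 array lay above every control, as in 1798 of all 13594 tested genes that were called higher. The count of G2/M genes that rose was 44 without each control or day 5 array in turn. Bub1, a kinase of the spindle checkpoint, was 154, 1064, 556, 499 and 229.9 in the controls and 3869, 3954, 2750.3 and 3687 on day 5. Control B was the highest control and remained below the lowest day 5 array (log2 2.80 ± 0.30, adjusted p = 1.2e-06). The mitotic cyclin gene Ccnb2 changed by 2.64 ± 0.37, the kinetochore gene Nuf2 by 2.63 ± 0.37 and the spindle gene Hmmr by 2.54 ± 0.27. Cdk1, the kinase that drives entry into mitosis, changed by 2.52 ± 0.22, with 612, 1547, 1332, 1200.2 and 749.8 in the controls and 6570.5, 6092, 7080.1 and 5842 on day 5. The 4 members that did not pass were Mybl2, Cdc25b, Foxm1 and Tpx2 (0.23, 0.07, -0.26 and -0.44). Without day 60 A 1 member passed as lower. Dlgap5 and Cdc25c were under the minimum signal.

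Promoters of these genes are known to hold a CCAAT box, bound by NF-Y, and a CHR element, bound by the MuvB complexes that time late cell cycle genes. RefSeq promoter windows (250 bases before to 50 after the start, build GRCm38.p6) were found for 37 of the 44 genes that rose. A CHR match (TTTGAA or TTCGAA, either strand) lay in 27 of the 37, against 21.7% of 27025 genes in the promoter table, and a CCAAT match (CCAAT, either strand) in 26, against 41.1%. Of 2 tested members that did not rise and had a window 1 held each motif. Both lay in the same window in 24 of the 37 and in 8.61% of all genes. A match is a description of these letters and not a tested site. The 160 bases before the start of 4 such genes are shown because they carry both motifs, with CHR and CCAAT matches in capitals: Cdk1 (chr10:69352913-69353072 on the minus strand), Cdc20, which activates the anaphase-promoting complex (chr4:118437344-118437503 on the minus strand), Top2a, the topoisomerase that untangles chromosomes (chr11:99024190-99024349 on the minus strand) and Kif11, the motor that builds the spindle (chr19:37376222-37376381 on the plus strand).
Cdk1: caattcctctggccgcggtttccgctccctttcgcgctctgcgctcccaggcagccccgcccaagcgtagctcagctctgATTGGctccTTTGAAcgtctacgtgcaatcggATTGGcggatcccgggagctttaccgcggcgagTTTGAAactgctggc
Cdc20: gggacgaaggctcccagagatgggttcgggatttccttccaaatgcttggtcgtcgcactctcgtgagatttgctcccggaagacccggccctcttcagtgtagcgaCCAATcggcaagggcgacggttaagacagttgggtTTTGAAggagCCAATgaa
Top2a: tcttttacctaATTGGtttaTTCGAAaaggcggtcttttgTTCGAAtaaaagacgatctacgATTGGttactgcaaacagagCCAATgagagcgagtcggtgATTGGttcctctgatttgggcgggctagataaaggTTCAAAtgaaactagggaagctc
Kif11: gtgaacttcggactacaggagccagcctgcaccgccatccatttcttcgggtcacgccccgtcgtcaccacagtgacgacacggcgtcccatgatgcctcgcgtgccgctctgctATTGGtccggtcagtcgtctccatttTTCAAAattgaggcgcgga
In Cdk1 the CHR match nearest the start lies 15 bases before it, in Cdc20 18, in Top2a 23 and in Kif11 19. Their day 5 changes were 2.52, 2.14, 1.89 and 1.63.

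In the list of G1/S and DNA replication genes 29 of 42 rose and none fell, with a median of 0.95, and 1 fell without control B. Mcm6, a subunit of the replicative helicase, was 2039.6, 5617, 3189.7, 2403 and 1932 in the controls and 14049, 10071, 8217 and 9556 on day 5. Control B was the highest control here too, and day 5 B the highest of all (log2 1.84 ± 0.26, adjusted p = 2.93e-05). The helicase partner gene Gins2 changed by 2.12 ± 0.35, Mcm5 by 1.82 ± 0.25 and Cdt1, which loads the helicase, by 1.64 ± 0.20. E2F factors switch such genes on at the G1/S border. A match to an E2F site (TTTCCCGC, TTTCGCGC, TTTGCCGC or TTTGGCGC, either strand) lay in the windows of 11 of the 22 genes that rose and had a window, in 6 of 12 tested members that did not, and in 2.61% of all genes in the table. The stretches of Mcm6 (chr1:128359706-128359865 on the minus strand) and Mcm5 (chr8:75109349-75109508 on the plus strand) hold E2F matches in capitals: each has a pair on opposite strands that overlap, and Mcm6 has a further one 47 bases before the start.
Mcm6: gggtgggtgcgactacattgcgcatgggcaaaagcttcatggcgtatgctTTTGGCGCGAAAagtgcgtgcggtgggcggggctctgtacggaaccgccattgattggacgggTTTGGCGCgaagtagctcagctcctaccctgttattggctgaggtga
Mcm5: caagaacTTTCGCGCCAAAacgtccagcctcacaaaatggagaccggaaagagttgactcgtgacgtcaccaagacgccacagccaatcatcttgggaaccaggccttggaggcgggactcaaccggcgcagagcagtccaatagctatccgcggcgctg
Matches were thus as frequent among members that did not rise.

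Genes that hold cells out of the cycle fell more often than they rose. Of 20 CDK inhibitors and quiescence genes 7 fell and 2 rose (median -0.35), and 4 rose without control B. The largest falls were in Txnip, which binds thioredoxin (-1.22 ± 0.17), the growth arrest gene Gas1 (-1.11 ± 0.27), Ccng1 (-1.10 ± 0.36) and the Krüppel-like factor Klf9 (-0.84 ± 0.16). The 2 that rose were the CDK inhibitor Cdkn2d (0.74 ± 0.15) and the pocket protein gene Rbl1 (1.19 ± 0.18). The Ccng1 call ended without day 5 B (adjusted p = 0.0772). Most nucleotide and one-carbon genes did not pass, with 7 of 30 higher and 3 lower (median 0.12). Those of DNA precursors led: the thymidine kinase Tk1 (1.98 ± 0.35), the ribonucleotide reductase subunits Rrm2 (1.57 ± 0.27) and Rrm1 (1.44 ± 0.14) and the folate enzyme Mthfd1l (1.08 ± 0.16). The serine enzymes Phgdh (-1.05 ± 0.28) and Psph (-0.68 ± 0.20) and the purine enzyme Ppat (-0.50 ± 0.18) fell. The arrays of Psph and Ppat overlapped. Psph lost its call without day 5 E (adjusted p = 0.0546) and Ppat without control A, control E, day 5 B or day 5 E (adjusted p 0.0875 to 0.153), and another probe set of Ppat gave no fall (log2 0.00299). Ribosome biogenesis lay near the background, with 5 of 28 higher and 2 lower (median 0.18): the nucleolar genes Nop56 (0.75 ± 0.19), Nhp2 (0.61), Nop16 (0.57) and Nolc1 (0.53) rose, and Wdr43 (-0.42) and the polymerase subunit Polr1c (-0.55) fell. Without control B 9 of them rose. Another probe set of Wdr43 passed as higher (0.42, adjusted p = 0.0408), another of Polr1c had 0.37 and did not pass, and another of Nolc1 had -0.95. The Wdr43 fall lost its call without day 5 B (adjusted p = 0.051) and the Polr1c fall, with overlapping arrays, without control B, control D, control E, day 5 C, day 5 D or day 5 E (adjusted p 0.0559 to 0.108).

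Genes of protein folding and export in the endoplasmic reticulum rose in the main. Of 34 tested 24 rose and none fell (median 0.88), and 1 fell without control C, control D, day 5 C, day 60 B or day 60 E. Pdia3, a disulfide isomerase, was 3520.1, 8256, 3892, 3639.8 and 4227 in the controls and 17769, 22479.8, 15078 and 14626 on day 5. Control B was the highest control by far and was below every day 5 array (log2 1.93 ± 0.28, adjusted p = 3.49e-05). The isomerase gene Pdia5 changed by 2.03 ± 0.22, the retrieval receptor gene Kdelr3 by 1.95 ± 0.31 and the translocon subunit gene Sec61a1 by 1.65 ± 0.29. The chaperone gene Hspa5 (BiP) changed by 1.05 ± 0.20, while the stress response genes Ddit3, Herpud1, Dnajb9 and Atf4 did not pass (0.37, -0.28, -0.36 and -0.39). These contrasting genes were chosen after their values were seen.

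Many chaperone genes of this compartment carry an ER stress element, a CCAAT box and a CCACG motif spaced by 9 bases, which ATF6 and NF-Y bind. The exact letters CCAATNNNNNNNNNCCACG, on either strand, lay in the windows of 6 of the 20 genes that rose and had a window (Calr, Canx, Creld2, Hsp90b1, Hspa5 and Pdia6), in 1 of 8 tested members that did not rise, and in 37 of 27025 genes in the table (0.137%). The element contains the CCAAT letters counted above. Stretches are given for Hspa5 (chr2:34771930-34772089 on the plus strand), for Hsp90b1, a chaperone of the same compartment (chr10:86705445-86705604 on the minus strand), for the isomerase gene Pdia6 (chr12:17266429-17266588 on the plus strand) and for Creld2 (chr15:88819486-88819645 on the plus strand), with the element in capitals.
Hspa5: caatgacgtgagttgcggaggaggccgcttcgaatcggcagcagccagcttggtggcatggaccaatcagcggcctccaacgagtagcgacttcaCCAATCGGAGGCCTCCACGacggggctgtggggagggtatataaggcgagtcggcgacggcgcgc
Hsp90b1: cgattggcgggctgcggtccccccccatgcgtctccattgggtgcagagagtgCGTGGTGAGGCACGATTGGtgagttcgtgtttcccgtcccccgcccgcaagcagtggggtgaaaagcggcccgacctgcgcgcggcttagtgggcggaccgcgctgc
Pdia6: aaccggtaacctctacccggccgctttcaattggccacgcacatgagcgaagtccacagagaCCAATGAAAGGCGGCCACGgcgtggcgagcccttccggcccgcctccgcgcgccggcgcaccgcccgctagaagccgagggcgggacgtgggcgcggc
Creld2: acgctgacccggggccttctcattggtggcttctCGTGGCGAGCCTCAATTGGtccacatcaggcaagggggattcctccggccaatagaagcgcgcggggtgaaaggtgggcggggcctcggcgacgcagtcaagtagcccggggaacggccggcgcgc
The 4 genes had changes of 1.05, 0.66, 1.31 and 1.25.

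Genes of new matrix rose, while several genes of resting connective tissue fell. Of 26 genes of provisional matrix, which forms in wounds and around new vessels, 19 rose and none fell (median 1.34). Tnc, the glycoprotein tenascin-C, was 1325, 3198, 1723, 1414 and 1695 in the controls and 20357, 20052, 18251 and 25035 on day 5, with no overlap (log2 3.48 ± 0.32, adjusted p = 2.66e-07). The aggrecanase gene Adamts4 changed by 3.63 ± 0.30, the matricellular gene Ccn2 by 2.77 ± 0.53 and Cthrc1, a secreted protein of activated fibroblasts, by 2.72 ± 0.25. In the basement membrane 11 of 22 rose and 3 fell (median 0.70). Besides Nid2 these were led by the collagen chains Col4a2 (2.86 ± 0.20), Col18a1 (2.71 ± 0.20) and Col4a1 (2.37 ± 0.16), while the chains Col4a4 (-1.35 ± 0.35) and Col4a5 (-0.95 ± 0.21) and the matricellular gene Smoc2 (-1.61 ± 0.25) fell.

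Of 25 fibrillar collagen and small proteoglycan genes 14 rose and 4 fell (median 0.95). Col12a1, a collagen that decorates fibrils, changed by 3.21 ± 0.30, Col8a1 by 2.43 ± 0.39 and the proteoglycans Aspn and Bgn by 2.27 ± 0.22 and 2.15 ± 0.27. The proteoglycans lumican (Lum, -1.47 ± 0.25) and decorin (Dcn, -1.42 ± 0.20), dermatopontin (Dpt, -1.82 ± 0.32) and elastin (Eln, -0.56 ± 0.19) fell, Eln with overlapping arrays. Its call ended without control A, control C, control D, day 5 B, day 5 C or day 5 D (adjusted p 0.0554 to 0.0778). Enzymes that finish collagen were higher in 13 of 21 and lower in 2 (median 0.98). Lox, which crosslinks collagen, was 2435, 3222, 4901, 4487 and 3697 in the controls and 23459, 14520.3, 13925 and 16786 on day 5, and its relative Loxl3 changed by 2.03 ± 0.24. The propeptide enhancer gene Pcolce (1.504 ± 0.24) and the collagen chaperone gene Serpinh1 (1.42 ± 0.20) rose as well. Pcolce2 (-1.35 ± 0.33) and the transglutaminase gene Tgm2 (-0.57 ± 0.19) fell, Tgm2 losing its call without control D, control E or day 5 B (adjusted p 0.0543 to 0.126).

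Of 28 proteases and inhibitors 12 rose and 3 fell (median 0.40). Timp1 and Adamts4 led, followed by the collagenase gene Mmp13 (3.09 ± 0.61) and Adam12 (2.79 ± 0.27). The inhibitor genes Timp2 (-1.39 ± 0.25), Timp4 (-1.503 ± 0.28) and Reck (-0.99 ± 0.28) were those that fell. Among 5 tested Timp2 probe sets 1 was higher on day 5 (0.77). Integrins rose in 10 of 20 and fell in 2 (median 0.48), led by the collagen receptor subunit Itga1 (3.46 ± 0.28), the fibronectin receptor subunit Itga5 (2.32 ± 0.26), the leukocyte subunit Itgb2 (2.16 ± 0.30) and Itgb1 (1.97 ± 0.16), the partner of most of them. Itgb8 fell (-2.05 ± 0.24). Itgb5 fell on its brightest probe set (-0.41 ± 0.13) with overlapping arrays, lost its call without day 5 B or day 5 C (adjusted p 0.0526 to 0.0694) and had a change of 0.43 on another probe set.

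Genes of resting fibroblasts fell in 16 of 22 and rose in 2 (median -1.05). Pi16, a marker of resting fibroblasts, was 5853, 4751, 13184, 9505 and 12508 in the controls and 642, 640.1, 1583 and 874 on day 5. Controls A and B were lowest and still above every day 5 array (log2 -3.14 ± 0.46, adjusted p = 3.88e-05). The ferritin receptor gene Scara5 changed by -2.92 ± 0.36, the growth factor binding protein gene Igfbp6 by -1.89 ± 0.34 and Dpt by -1.82. The members that rose were Col15a1 (1.19 ± 0.19) and Cd34 (1.17 ± 0.42), both also made by vessels, and the Cd34 call ended without control A, control B, control D, day 5 B, day 5 C, day 5 D or day 5 E (adjusted p 0.0538 to 0.0814).

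IGF axis and imprinted growth genes held large changes both ways, with 4 of 19 higher and 5 lower (median -0.10). Mest, an imprinted gene of embryonic mesoderm, was 1719, 1677, 2067, 1871 and 1597 in the controls and 31869.6, 19256, 16351 and 14876 on day 5. The controls were tightly grouped and day 5 B was the highest array (log2 3.39 ± 0.17, adjusted p = 1.03e-10). Igfbp5, an IGF binding protein gene of stroma, was 46974, 37628, 41161, 46816 and 55108 in the controls and 3155, 4263, 9684 and 7587 on day 5 (log2 -2.98 ± 0.28), opposite to Igfbp3 (3.84) and the vascular Igfbp7 (1.87 ± 0.19). Igfbp6 (-1.89), the insulin receptor substrate gene Irs1 (-1.76 ± 0.21) and the protease gene Htra1 (-0.43) fell, and the imprinted gene Peg3 rose (0.59). Peg3 and Htra1 overlapped, Peg3 losing its call without day 5 B or day 5 E (adjusted p 0.0524 to 0.0596) and Htra1 without control B, control C, control D, control E, day 5 B, day 5 C, day 5 D, day 20 B, day 20 D, day 20 E, day 60 B or day 60 D (adjusted p 0.052 to 0.138). The imprinted genes Igf2, Dlk1 and Plagl1 did not pass (-0.40, 0.38 and 0.25). Without day 5 B or day 5 C 3 genes of this list fell.

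Wnt genes fell in 15 of 31 and rose in 1 (median -0.55), and 10 fell without day 5 B. The ligand gene Wnt5b changed by -1.69 ± 0.22, the secreted inhibitor gene Sfrp4 by -1.54 ± 0.21, the receptor gene Fzd7 by -1.499 ± 0.14 and Wnt9a by -1.18 ± 0.18. The feedback gene Axin2, a readout of the pathway, changed by -0.89 ± 0.15. Dkk2, a secreted modulator of Wnt receptors, was the exception, from 251, 558, 402, 287 and 141 in the controls to 3536, 3370.0, 2275 and 3573 on day 5 (log2 3.002 ± 0.26).

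Macrophage genes rose in the main. Of 35 tested 26 rose and 3 fell (median 1.70). Ms4a6d was 807, 1661, 2402, 1593 and 717 in the controls and 38423, 29319, 18828 and 25232 on day 5, day 5 B being highest. Clec4n changed by 4.14 ± 0.40, the Fc receptor chain gene Fcer1g by 3.52 ± 0.44 and the scavenger receptor gene Msr1 by 3.10 ± 0.38. Cd68, a lysosomal marker of macrophages, rose from 712 ± 179 to 4108 ± 1235, while the growth factor receptor gene Csf1r did not pass (0.86 ± 0.33, adjusted p = 0.0523). For Csf1r every day 5 array (59424 to 78255) still lay above every control (23575 to 45345). The genes that fell were Retnla (-2.02 ± 0.37), a secreted protein of alternatively activated macrophages and of fat, the endotoxin coreceptor gene Cd14 (-0.82 ± 0.27) and the arginase gene Arg1 (-1.23 ± 0.47). The Cd14 call ended without control A, control E, day 5 C, day 5 D or day 5 E (adjusted p 0.057 to 0.0665) and the Arg1 call without control A, control B, control C, control D, control E, day 5 B, day 5 D, day 5 E, day 20 A, day 20 B, day 20 D or day 60 D (adjusted p 0.0503 to 0.14), so that 1 member fell without control A, control E, day 5 D or day 5 E.

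Of 33 chemokine and cytokine genes 16 rose and none fell (median 0.92). Without day 60 B 2 fell, and 1 without control B, control D, day 20 B, day 20 E or day 60 A. Ccl2 was 191, 101, 302, 133 and 176 in the controls and 7321, 3286, 2602 and 2052 on day 5. Day 5 B was more than 2 times the next array, and the lowest day 5 array was above every control (adjusted p = 9.89e-08). Its relatives Ccl7 (3.06 ± 0.45) and Ccl12 (2.77 ± 0.49) and the receptor gene Cxcr4 (2.73) followed. Ccr2, the receptor for Ccl2 on monocytes, changed by 2.34 ± 0.36 and the cytokine gene Il6 by 2.10 ± 0.32. The neutrophil chemokine genes Cxcl1 and Cxcl2 did not pass (adjusted p = 0.995 and 0.124), nor did Il1b (0.37), and Tnf was under the minimum signal. Ccl3, also under it and not tested, was 58.9, 17.3, 34.5, 32.8 and 74.3 in the controls and 1290, 214, 351 and 370 on day 5. The other members under it, Ccl22, Ccr7 and Cxcr2, overlapped between the groups, as did Tnf.

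Of 14 neutrophil and mast cell genes 4 fell and none passed as higher in limma (median 0.05), with 0 higher at an unadjusted p under 0.05. Without day 5 D 2 passed as higher. The granule genes Ltf (-3.24 ± 0.34) and Lcn2 (-3.13 ± 0.74), the decoy receptor gene Il1r2 (-0.98 ± 0.28, arrays overlapping) and the stem cell factor receptor gene Kit (-0.58 ± 0.15) fell. Ltf and Lcn2 are secreted by glandular epithelium as well, whose list fell, and that tissue's part was not tested. The neutrophil markers S100a8, S100a9 and Csf3r had changes of 0.85 ± 0.57, 0.92 ± 0.44 and 0.32 ± 0.21 and did not pass. A further 4 members were under the minimum signal and not tested. Among these the granule gene Camp was 35.1, 40.2, 18.1, 62.8 and 16.5 in the controls. On day 5 Camp was 210, 666, 62.6 and 938, higher in all arrays but D. Cxcr2, Fcer1a and Tpsb2 overlapped between the groups. Of 9 tested lymphocyte genes 1 rose, the granzyme gene Gzma (1.43 ± 0.24), and 2 fell, the immunoglobulin joining chain gene Jchain (-0.81) and the perforin gene Prf1 (-0.55). A further 11 of the 22 members were under the minimum signal. Among these Nkg7 was 59.9, 52.5, 114, 81.1 and 245 in the controls and 459, 421, 443 and 512 on day 5. Others of them, such as Cd3e and Cd79a, overlapped between the groups. With no minimum signal 3 members of the list rose. Jchain lost its call without control A, control C, control D, day 5 B, day 5 C, day 5 D or day 5 E (adjusted p 0.0512 to 0.0972) and Prf1, whose arrays overlapped, without control A, control D, day 5 B or day 5 D (adjusted p 0.0698 to 0.123).

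Interferon-stimulated genes rose in 23 of 33 and fell in none (median 0.73), and 18 rose without day 5 D. The guanylate-binding protein genes Gbp3 and Gbp7 changed by 1.82 ± 0.24 and 1.49 ± 0.21, the antiviral gene Rsad2 by 1.79 ± 0.30 and the oligoadenylate synthetase gene Oas1a by 1.73 ± 0.27. In these counts adenovirus and VEGF-A cannot be told apart. Interferon response elements (ISRE), bound by IRF factors, were searched as GAAANNGAAA on either strand. They lay in the windows of 11 of the 19 genes that rose and had a window, in 1 of 6 tested members that did not, and in 3.99% of all genes in the table. The examples have the element in capitals: Gbp3 (chr3:142559884-142560043 on the plus strand), Oas1a (chr5:120907526-120907685 on the minus strand) and Ifit1, which binds viral RNA (chr19:34640729-34640888 on the plus strand, log2 1.43).
Gbp3: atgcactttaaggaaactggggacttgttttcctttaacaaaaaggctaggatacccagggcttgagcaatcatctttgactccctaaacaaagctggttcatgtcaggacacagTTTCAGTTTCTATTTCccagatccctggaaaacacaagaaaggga
Oas1a: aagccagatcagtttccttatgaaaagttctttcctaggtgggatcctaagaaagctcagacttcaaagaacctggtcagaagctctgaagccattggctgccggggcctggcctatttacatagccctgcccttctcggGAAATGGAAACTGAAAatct
Ifit1: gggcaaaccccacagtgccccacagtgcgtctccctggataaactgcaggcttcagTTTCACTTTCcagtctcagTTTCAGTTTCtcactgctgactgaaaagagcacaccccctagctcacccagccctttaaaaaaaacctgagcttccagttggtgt
In Gbp3 and Oas1a overlapping matches run together into 1 stretch of capitals. Ifit1 holds 2 separate ones, 104 and 85 bases before the start.

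MHC class II genes rose in 6 of 10 and fell in none (median 0.81). These were led by the costimulatory receptor gene Cd40 (1.34 ± 0.22), the invariant chain gene Cd74 (1.16 ± 0.29) and the chains H2-Eb1 (1.13 ± 0.34) and H2-Aa (1.13 ± 0.30). Of 23 complement and coagulation genes 11 rose and 3 fell (median 0.78). F2r was followed by the protease inhibitor gene Tfpi2 (2.86 ± 0.26), the complement receptor gene C3ar1 (2.40 ± 0.41) and C1qa, a macrophage product (2.22 ± 0.55). The classical pathway proteases C1s1 (-1.36 ± 0.28) and C1ra (-0.92 ± 0.32) and the von Willebrand factor gene Vwf (-1.15 ± 0.39) fell. C1ra and Vwf overlapped, C1ra losing its call without control A, control B, control D, control E, day 5 B, day 5 C or day 5 E (adjusted p 0.051 to 0.102) and Vwf without control B, control D, day 5 B or day 5 C (adjusted p 0.0569 to 0.14).

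Haem and iron genes rose in 6 of 14 and fell in 2 (median 0.78). Hmox1, which breaks down haem, was 556, 595, 667, 601 and 316 in the controls and 7098, 4234, 3739 and 4935 on day 5, at least 5 times every control (log2 2.97 ± 0.29, adjusted p = 3.82e-07). The biliverdin reductase gene Blvrb (1.08 ± 0.21) and the iron transporter gene Slc11a1 of macrophages (1.31 ± 0.20) rose too. Slc4a1, an anion exchanger of red cells, changed by 1.66 ± 0.50 and lost its call without day 5 B (adjusted p = 0.0635). The transferrin receptor gene Tfrc (-0.56 ± 0.15) and the iron reductase gene Steap4 (-1.498 ± 0.18) fell.

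**Figure D3:**
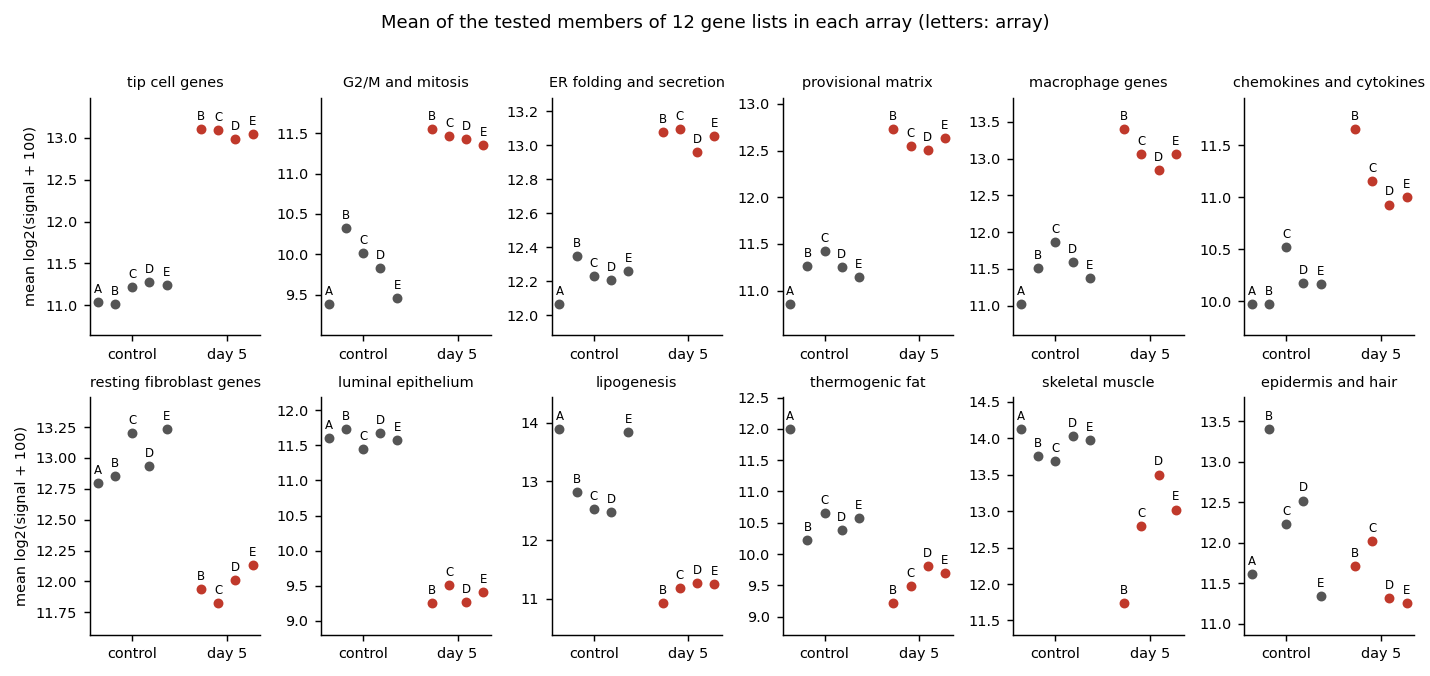
Mean log2(signal + 100) of the tested members of 12 gene lists (vertical axes) in each control array (grey, A to E) and day 5 array (red, B to E). Epidermis and hair genes overlap between groups with control B highest, control A is highest for thermogenic fat genes, and day 5 B is lowest for skeletal muscle genes (11.74, against 12.80 to 13.50 in the other day 5 arrays).

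Fat genes fell. Of 20 adipocyte genes 17 fell and none rose (median -1.51), and of 24 lipogenesis genes 20 fell and none rose (median -1.77). Adipoq, the hormone adiponectin, was 33133, 28479.6, 22682, 21871 and 61847 in the controls and 2745, 4819.8, 4561 and 3603 on day 5. Control E was the highest, and the groups did not overlap (log2 -2.98 ± 0.73, adjusted p = 0.00376). The gluconeogenic enzyme gene Pck1 (-3.18 ± 0.67), the lipid droplet gene Cidea (-3.03 ± 0.68) and the hormone gene Retn (-2.98 ± 0.51) were the other leaders. In Cidea control A was 19489 and the other 4 controls 885 to 1822, and without control A the change was -2.24. Fasn, the fatty acid synthase, was 54659.6, 22392, 11402, 9509 and 52292 in the controls and 2415, 2486, 2723 and 3194 on day 5, so that controls A and E were more than 2 times the rest (log2 -3.07 ± 0.50). Thrsp, Ces1d and the related Ces1f (-3.46 ± 0.58) fell further. Fabp4 and Pparg, both of mature fat cells, did not pass (-0.51 ± 0.28 and -0.32 ± 0.26).

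Of 13 thermogenic fat genes 8 fell and none rose (median -1.001), and 4 fell without day 5 B and 5 without control A or day 5 C. Ucp1, the uncoupling protein of brown fat, was 43788, 516, 1720.5, 723 and 59.9 in the controls and 67.8, 29.8, 148 and 42.4 on day 5. Control A alone carried most of the group's signal, control E lay within the day 5 range, and the groups overlapped (log2 -3.13 ± 0.98, adjusted p = 0.0182). The cytochrome oxidase genes Cox7a1 (-1.80 ± 0.59) and Cox8b (-1.76 ± 0.62), which muscle also expresses, fell. Cox7a1 lost its call without control A or day 5 B (adjusted p 0.0631 to 0.104) and Cox8b without control A, control E, day 5 B, day 5 C or day 5 E (adjusted p 0.0524 to 0.121).

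Skeletal muscle genes fell in 14 of 35 and rose in 2 (median -1.19), but this count rested on single arrays. Without control A 7 fell, without day 5 B 3, without day 5 C 6 and without day 60 B 27, and in the fit of the compared groups alone 27 fell. Ckm, the muscle creatine kinase, was 74311, 59601, 40263, 53676 and 69278 in the controls and 5791, 22354, 24926 and 16548 on day 5. Every day 5 array was below every control, and day 5 B was far below the other 3 (log2 -1.93 ± 0.58, adjusted p = 0.0145). The muscle markers Acta1, Mylpf and Tnnt3 did not pass (-0.88, -1.06 and -1.53), and the arrays of Acta1 and Mylpf overlapped. The calcium store gene Casq1 (-2.83 ± 0.53), the glycogen phosphorylase gene Pygm (-2.35 ± 0.66), the slow myosin gene Myh7 (-2.21 ± 0.58) and the actinin gene Actn3 (-2.06 ± 0.72) fell most. Actn3 overlapped and lost its call without control A, control E, day 5 B, day 5 C or day 5 E (adjusted p 0.0514 to 0.151). Ankrd1, a stress-induced muscle protein gene (1.51 ± 0.41), and the embryonic and denervated acetylcholine receptor subunit gene Chrna1 (0.87 ± 0.32) rose. The Chrna1 arrays overlapped and its call ended without control C, control D, control E, day 5 C, day 5 D, day 5 E, day 20 A, day 20 D or day 60 E (adjusted p 0.0501 to 0.147).

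Mitochondrial respiration genes fell in 20 of 32 and rose in none (median -0.67), and 10 fell without day 5 B, 11 without control A, 12 without control E or day 5 E and 13 without day 5 C. Cox6a2, the muscle form of an oxidase subunit, changed by -2.20 ± 0.73 and lost its call without day 5 B (adjusted p = 0.117), and the complex III subunit gene Uqcrfs1 changed by -1.17 ± 0.36. Of 28 glycolysis and hypoxia genes 13 fell and 4 rose (median -0.68). Ldhb, a lactate dehydrogenase of oxidative tissue, changed by -2.79 ± 0.41, the mitophagy gene Bnip3 by -1.90 ± 0.28, the glycolysis regulator gene Pfkfb3 by -1.82 ± 0.31 and Pfkm, the muscle phosphofructokinase, by -1.81 ± 0.48. Hif1a, the hypoxia-inducible factor, rose (0.49 ± 0.14), as did the hexokinase gene Hk1 (0.36 ± 0.12), the platelet phosphofructokinase gene Pfkp (1.06 ± 0.21) and P4ha1 (1.20 ± 0.31), a collagen hydroxylase. The Hk1 call ended without control E, day 5 B or day 5 E (adjusted p 0.052 to 0.0877). The mean of the skeletal muscle list was lower on the same arrays, and its part in these falls was not tested.

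Luminal epithelial genes fell in 19 of 25 and rose in none (median -1.92), the lowest median of the 46 lists. Krt18 was 8370.1, 7214, 8042, 11570.5 and 9698 in the controls and 388, 309, 334 and 417 on day 5, with little spread in either group (log2 -4.28 ± 0.61, adjusted p = 2.9e-05). Foxa1, Clca3a2 and Pgr fell further, as given above. Of 25 epidermis and hair genes none passed in limma, with 0 higher and 1 lower at an unadjusted p under 0.05 (list median -0.72), 1 passing as lower without control E, day 20 C or day 20 E, with list means from 11.34 to 13.41 in the controls and from 11.25 to 12.02 on day 5. Schwann cell and myelin genes fell in 6 of 11 (median -0.68): the myelin protein genes Mbp (-1.94 ± 0.31) and Ncmap (-1.24 ± 0.20), the glial gene S100b (-1.49 ± 0.25) and Mal (-0.98 ± 0.23) fell most. Clock genes fell in 8 of 17 and rose in none (median -0.73), and no label gives the hour of harvest. Dbp, a factor driven by the clock, was 11590.2, 5645, 8992, 10279.7 and 11076 in the controls and 1265, 2295, 2879 and 3089 on day 5 (log2 -1.98 ± 0.28). The other leaders were the nuclear receptor genes Nr1d1 (-1.62 ± 0.39) and Nr1d2 (-1.06 ± 0.28) and the factor Tef (-1.08 ± 0.22, arrays overlapping), while the core activator genes Clock and Arntl did not pass (0.07 and -0.01).

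**Figure D4:**
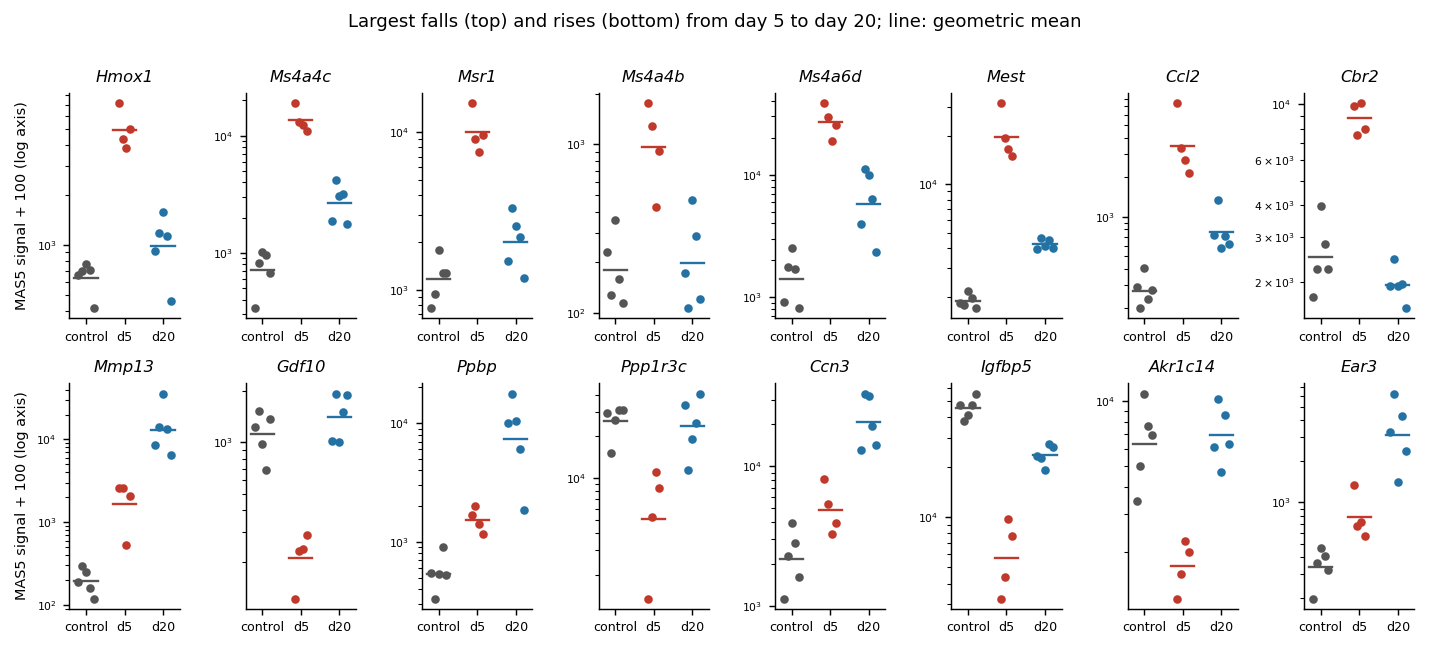
MAS5 signal + 100 (vertical axes, log scale) of the 8 genes that fell most (top) and the 8 that rose most (bottom) from day 5 to day 20, among genes called in both comparisons. Points are arrays of control (grey), day 5 (red) and day 20 (blue), and lines are geometric means. In the top row every gene has its highest mean on day 5. In the bottom row the means of Gdf10, Ppp1r3c, Igfbp5 and Akr1c14 are lowest on day 5, and those of the other 4 rise from control to day 5 to day 20.

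Day 20 was set against day 5 to see which day 5 levels had changed again. Over all 13594 genes 306 were lower on day 20 (2.25%) and 415 higher (3.05%). Of the genes that had risen by day 5, 228 were lower again on day 20 and 49 higher still, and of those that had fallen 182 were higher on day 20 and 4 lower still. Both comparisons share the day 5 arrays, so a chance high or low on day 5 enters both with opposite sign. The counts of day 20 against day 5 were 239 to 513 genes higher and 179 to 363 lower when 1 array of any group was left out, the smallest of each without day 5 C.

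The largest shifts from day 5 to day 20 are given among genes called in both comparisons. Macrophage genes and the haem enzyme gene Hmox1 were among the largest falls. Hmox1 was 824, 1079.9, 1475, 1036 and 358 on day 20 A to E, with every array below every day 5 array (log2 -2.34 ± 0.29, day 20 minus day 5, adjusted p = 0.000121). Mest was 3866, 4522, 4022, 4384 and 3898 on day 20 (log2 -2.22 ± 0.17, adjusted p = 6.14e-07), and Ccl2 was 622, 1255, 481, 616 and 521 (-2.19 ± 0.31). For both genes every day 20 array lay below every day 5 array and above every control. The other members of the 8 largest falls were Ms4a4c (-2.34 ± 0.44), Msr1 (-2.31 ± 0.38), Ms4a4b (-2.29 ± 0.49), Ms4a6d (-2.24 ± 0.48) and Cbr2, a carbonyl reductase gene (-2.17 ± 0.36). Cbr2 rose by 1.81 ± 0.36 by day 5 and Ms4a4b by 2.42 ± 0.49.

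By lists, 15 of 48 G2/M genes were lower on day 20 than on day 5, as were 11 of 42 G1/S genes, 9 of 35 macrophage genes, 7 of 28 ribosome biogenesis genes, 6 of 33 chemokine genes, 6 of 34 folding and secretion genes and 5 of 30 nucleotide genes. In these lists 1 gene was higher on day 20, the cytokine gene Il1b (1.45 ± 0.30). Of 30 tip cell genes 2 were lower (Igfbp3 and Adm, the adrenomedullin gene) and 2 higher (Rgs5 and Pcdh17), with Esm1 at 0.05 ± 0.42 and Kcne3 at -0.87 ± 0.26, neither of which passed, and Igfbp3 at -1.30 ± 0.26. Col4a1 did not pass (0.12 ± 0.16), while Tnc was lower on day 20 (-1.63 ± 0.32, adjusted p = 0.00587).

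The 8 largest rises from day 5 to day 20 were in Mmp13, from 2488, 2464, 437 and 1949.6 on day 5 to 8471, 13853, 35795, 13168 and 6305 on day 20 (log2 2.98 ± 0.61, adjusted p = 0.00648), the growth factor gene Gdf10 (2.74 ± 0.30), the platelet chemokine gene Ppbp (2.25 ± 0.54), the glycogen regulator gene Ppp1r3c (2.22 ± 0.55), the matricellular gene Ccn3 (2.09 ± 0.40), Igfbp5 (2.05 ± 0.28), the aldo-keto reductase gene Akr1c14 (2.02 ± 0.44) and the eosinophil ribonuclease gene Ear3 (1.99 ± 0.37). Mmp13, Ppbp, Ccn3 and Ear3 had risen by day 5 already, Ppbp by 1.499 ± 0.54, Ccn3 by 1.18 ± 0.40 and Ear3 by 1.21 ± 0.37. Gdf10, Ppp1r3c, Igfbp5 and Akr1c14 had fallen by day 5, with log2 changes of -2.41 ± 0.30 for Gdf10, -2.34 ± 0.55 for Ppp1r3c and -1.87 ± 0.44 for Akr1c14. Another probe set of Igfbp5 had a change of -0.23 between the days. Single arrays ended the day 5 calls of Ppbp without control A, control B, control C, control E, day 5 B, day 5 C or day 5 D (adjusted p 0.0619 to 0.0996), of Ccn3 without control A, control E, day 5 B or day 5 C (adjusted p 0.0634 to 0.108) and of Ear3 without day 5 B (adjusted p = 0.0689). Between days, Ppbp lost its call without day 5 D or day 5 E (adjusted p 0.0524 to 0.0618) and Ppp1r3c without day 5 B, day 5 C, day 20 A or day 20 E (adjusted p 0.0531 to 0.0775). Among the lists with members higher on day 20, fibrillar collagens (7 of 25), resting fibroblast genes (7 of 22), pericyte genes (6 of 19) and the IGF axis (6 of 19, with 2 lower) had the most.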

How the data were processed

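RNA of mouse flank tissue was hybridised to Affymetrix Mouse Genome 430 2.0 arrays. The deposited values are MAS5 signal, a linear intensity per probe set that the authors made with GCOS 1.3 and scaled on each array, per the submitters' processing notes and the labels. Of 45101 probe sets 34958 had 1 gene symbol, and 34754 of these were matched to the RefSeq gene table. The unmatched ones kept their given symbol. With the 64 control probe sets dropped, the probe sets with 1 symbol gave 18193 genes, each represented by its brightest probe set. Genes with a mean signal of at least 300 over 19 arrays were tested on log2(signal + 100) with limma 3.58.1 in R 4.3.3 (lmFit, eBayes with a trend), in 1 fit of 4 group means with Benjamini-Hochberg adjustment over 13594 genes.

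Members and gene lists were chosen with earlier results of these data known, so list counts and medians are descriptions without a test of their own. Named genes were Vegfa and the 15 largest rises and falls among called genes whose arrays did not overlap. Per list they were the 4 largest called members and every called member going the other way. The 8 largest shifts each way from day 5 to day 20 were taken among genes called in both comparisons. Other genes named were chosen after their values were seen. No label states that the letters of the titles pair the arrays. Residuals of day 5 and control arrays of the same letter correlated at 0.16 (B), -0.143 (C), 0.01 (D) and 0.232 (E). Those of different letters ran from -0.291 to 0.393, and so few values cannot exclude a pairing. The fit was tested on simulated data. Alternatives were other pseudocounts, minimum signals, scalings, probe sets, weights, fits and arrays left out.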

Additional observations from a re-analysis of the deposited data

Results flagged for a closer look

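Arrays that stood apart from the others of their group were looked for with Dixon's gap over range at its critical value. It marked 33 of 502 groups of arrays over 251 named genes and 6 of 92 list means, and chance marks about 1 in 20 groups. Control B was the outlying array in 9 of the genes and day 5 B in 9.

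Control B was high in Idi2 (gap over range 0.872), Ccn2 (0.742), Gas1 (0.808), Nhp2 (0.914), Pdia3 (0.787) and Arg1 (0.744), and low in Flt4 (0.827), Serpinh1 (0.727) and Ppp1r3c (0.762). It was also high in the means of the CDK inhibitor list (0.783) and the nucleotide list (0.884). Control A was low in Nostrin (0.767) and high in Ltbp2 (0.716), Cidea (0.776) and the thermogenic mean (0.755). Control D was low in Tgfb1 (0.766) and high in the Schwann cell mean (0.820), control C low in P4ha1 (0.839) and control E low in Hmox1 (0.746).

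Day 5 B was low in Flt1 (0.862), Myl9 (0.831), Wdr43 (0.861), Pfkp (0.851), P4ha1 (0.949), Ltf (0.858) and Nr1d2 (0.857), and high in Cd14 (0.839), Ccl7 (0.856) and the means of the MAPK (0.894) and G1/S lists (0.943). Day 5 C was low in Pgr (0.866) and Ntn1 (0.932). Day 5 D was high in Amy1 (0.885) and Igfbp6 (0.851) and low in Mmp13 (0.852) and Dkk2 (0.869). Day 5 E was high in Angpt1 (0.872) and Loxl3 (0.847) and low in Nhp2 (0.896).

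The 16 genes with the largest shifts from day 5 to day 20 were picked among genes called in limma in both comparisons. That they differed between the days follows from this choice. The log2 differences (day 20 minus day 5) were 2.98 for Mmp13, 2.74 for Gdf10, 2.25 for Ppbp, 2.22 for Ppp1r3c, 2.09 for Ccn3, 2.05 for Igfbp5, 2.02 for Akr1c14 and 1.99 for Ear3. They were -2.34 for Hmox1, -2.34 for Ms4a4c, -2.31 for Msr1, -2.29 for Ms4a4b, -2.24 for Ms4a6d, -2.22 for Mest, -2.19 for Ccl2 and -2.17 for Cbr2.

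The array left out of every group, titled as day 5 with the source name of the control, had a signal of 11111.1 on the brighter Vegfa probe set, above the 467 of the highest control. Its group was not settled by the labels. Kcne3 was 6846.5 on this array, against 161 in the highest control. Mest was 29495.3, where controls reached 2067 and day 20 arrays 4522. Krt18 was 363 and Pi16 663, against lowest controls of 7214 and 4751. In each gene plotted for control and day 5 arrays alone, this array lay on the day 5 side of every control. These genes were picked with their values known, and its likeness to either group over all genes was not tested.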

How the results depend on the processing

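The number of arrays limits the precision, and signal under the pseudocount of 100 moves the log2 values little. Day 5 counts over all genes were 1972 to 2389 higher and 1867 to 2557 lower when 1 array was left out. With the unassigned array counted as control 1543 genes were higher and 1269 lower on day 5, against 2285 and 2373. Counted as day 5, it gave 2468 higher and 2726 lower. Its signal lay on the day 5 side of every control in the genes given for it above, so its use as control may mix the groups. Between day 5 and day 20, array weights gave 934 higher and 819 lower on day 20, the unassigned array as control 225 and 125, and the fit of the compared groups alone 493 lower. Leaving out 1 array gave 239 to 513 higher and 179 to 363 lower on day 20, against 415 and 306. With the replicate block (letter of the title), which no label backs as a pairing, 2155 genes were higher and 2257 lower on day 5, and 339 and 216 on day 20. With the Actb ratio as a covariate, an alternative chosen after seeing the data, 2204 were higher and 2132 lower on day 5, 21 values of named genes lost their call and 17 list counts or medians moved. On probe sets without the x or s suffix 5 named values changed sign: Itgb5 (0.43), Ppat (0.00299), Wdr43 (0.42), Polr1c (0.37) and, from day 5 to day 20, Igfbp5 (-0.23). Another probe set was read in these cases. Over all alternatives 8443 values of named genes kept their direction and side of the threshold, and 335 lost the call, 61 of them with the unassigned array as control. Of list values 206 counts and 88 medians moved, 132 of them with 1 array left out and 41 with the unassigned array as control. With that array as control thermogenic genes lower on day 5 were 1 (against 8), mitochondrial 5 (against 20) and skeletal muscle 2 (against 14). The cause of the other changes was not tested.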
